A study of Mus musculus with 96 samples.

Results

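The nuclear-encoded subunits of the respiratory chain are the parts of complexes I to V whose genes lie in the nucleus, and whose proteins are carried into the mitochondrion. Members were the protein-coding genes of the count table with a symbol that starts with the usual stem of a subunit, which are the numbered Nduf genes and Ndufab1 for complex I, Sdha to Sdhd for complex II, Uqcr and Cyc1 for complex III, Cox4 to Cox8 for complex IV and Atp5 for complex V. The rule took 88 of the 56748 genes in the table, of which 21970 are protein-coding. There were 37 members in complex I, 4 in complex II, 9 in complex III, 20 in complex IV, where Ndufa4 was counted, and 18 in complex V.

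The libraries were made from polyadenylated RNA of liver, skeletal muscle and cerebral cortex from C57BL/6 mice on standard chow that ate ad libitum (AL) or under intermittent fasting (IF). Mice 1 to 8 (AL) and 9 to 16 (IF) were male, and mice 25 to 32 (AL) and 33 to 40 (IF) were female. Male mice were put on AL or IF at 6 weeks of age for 4 months, the IF mice fasting 16 h each day, and the IF mice were culled at the end of a fast. The age of the female mice, the hours of their fast and the length of their diet are not given in the sources used here, so a difference between mice 1-16 and mice 25-40 cannot be told apart as one of sex or of any other condition that went with the set. There were 8 libraries in each of the 12 groups of tissue, diet and set, each from 1 mouse, and the 95 libraries used held between 26097314 and 49838004 counts with a median of 36132954. The library labelled as cortex of AL male mouse 1 had 213 CPM (counts scaled to library size) of Xist, the transcript of the inactive X chromosome, against at most 0.612 CPM in the other 47 libraries of mice 1-16, and was left out, so that group had 7. The tissue labels were checked against marker genes, which were high where they belong. The 5 hepatocyte markers summed to between 47108 and 76483 CPM in AL liver of mice 1-16, the 5 skeletal muscle markers to between 92610 and 110339 CPM in AL muscle, and the 5 neuron markers to between 5547 and 6793 CPM in AL cortex.

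Complex I takes electrons from NADH and complex II takes them from succinate, complex III hands them to cytochrome c, and complex IV hands them to oxygen. The protons pumped by complexes I, III and IV drive complex V, the ATP synthase. Mitochondrial DNA encodes the core membrane subunits of every complex but the second, so these complexes are built from products of both genomes. Several complex IV subunits come as one isoform of heart and skeletal muscle and one found in most tissues. Liver oxidises fatty acids during a fast, muscle adjusts its respiratory capacity to the fibre type and to work, and the cortex has a steady oxidative demand.

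The first comparison asked how the subunits are distributed over tissues in AL mice, with 8 libraries per group apart from 7 of cortex in mice 1-16, and with the 3 tissues scaled together. The 88 members summed to between 43480 and 57354 CPM in muscle of mice 1-16, with a median of 50134, against 13227 to 19917 CPM in liver with a median of 16446 and 8305 to 11541 CPM in cortex with a median of 9935. With this scaling the ranges lay apart, with every muscle library above every liver library and every liver library above every cortex library. In mice 25-40 the sums were 35697 to 46778 CPM in muscle, 10440 to 19894 CPM in liver and 9510 to 13774 CPM in cortex, and here the ranges of liver and cortex overlapped. The order of liver and cortex depended on the scaling. With the library total in place of the scaled total, AL cortex of mice 1-16 had a median of 15347 CPM, in a range of 13231 to 17895. Liver had 13914 CPM, in a range of 12165 to 16379. In mice 25-40 the medians were 18002 CPM in cortex and 15924 CPM in liver. Muscle stayed above both, at no less than 32808 CPM in mice 1-16 and 27464 CPM in mice 25-40. By the scaled total, complex V was the largest in muscle, at a median of 16854 CPM in mice 1-16. Complex II, with the fewest members, was the smallest in each tissue, at 2180, 528 and 430 CPM in muscle, liver and cortex.

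In muscle against liver of mice 1-16, 81 of the 85 members tested were higher and 3 were lower by edgeR's quasi-likelihood test at a Benjamini-Hochberg adjusted p under 0.05, where 40.9% of all genes tested were higher and 40% lower, and the median log2 difference of the members was 1.68 against 0.00 over all genes. In mice 25-40, 71 were higher and 3 lower of 85, beside 41.7% and 38.9% of all genes, with a median of 1.19 against 0.06. The 3 lower members bore the same names in each set. They were Uqcrq, a small subunit of complex III, and Cox6a1 and Cox8a, the widely expressed isoforms of a pair of complex IV subunits. Against cortex, muscle was higher for 82 and lower for 3 of 85 members in mice 1-16, beside 36.1% and 45.3% of all genes, with a median of 2.43 against -0.24. In mice 25-40 it was higher for 81 and lower for 3, beside 36.2% and 45% of all genes, with a median of 1.70 against -0.21. The lower members here were Cox6a1, Cox8a and Cox6b2, the last known from testis. Cortex against liver gave 13 higher and 57 lower of 85 in mice 1-16, beside 46% and 38.5% of all genes, and 13 higher and 46 lower in mice 25-40, beside 47% and 37.8%, with member medians of -0.63 and -0.44. Atp5b and Atp5a1, the catalytic beta and alpha subunits of the ATP synthase, were among the members higher in cortex, and Atp5b had a log2 difference of 1.14 in mice 1-16 and 1.01 in mice 25-40. Comparisons between tissues share libraries, since each tissue entered more than one of them. They rest on scaling over the 3 tissues, and library totals were not tried for them.

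The level per length, as CPM per kilobase of the gene length in the table, was used to rank the subunit transcripts of each complex in AL mice. In complex I, Ndufa2, an accessory subunit of the hydrophilic arm, led in liver at a median of 357 CPM per kilobase and in muscle at 713 in mice 1-16, and the accessory subunit Ndufs5 led in cortex at 115. In complex II the iron-sulfur subunit Sdhb led in liver at 122 and in muscle at 296 CPM per kilobase, and in cortex the flavoprotein Sdha led in mice 1-16 at 45.7 and Sdhb in mice 25-40 at 56.5. Uqcrq led complex III in liver at 676 CPM per kilobase, and Uqcr10, another small subunit, led it in muscle at 1042 and in cortex at 156. In complex IV the leader was Cox6a1 in liver at 701, Cox6a2 in muscle at 3038 and Cox8a in cortex at 614 CPM per kilobase. Complex V was led by Atp5e, the small epsilon subunit, in liver at 319, and by Atp5b in cortex at 194. Atp5b also led in muscle of mice 1-16 at 870 CPM per kilobase, and Atp5a1 in muscle of mice 25-40 at 841. The ranking depends on the length used. With canonical lengths, chosen after seeing the data, the leaders that held in each set were Sdhb, Uqcrq and Atp5e in liver, Uqcr10 and Cox6a2 in muscle, and Ndufs5, Uqcr10 and Atp5b in cortex. The others changed in at least 1 set, among them Ndufa2 in liver and muscle, Cox6a1 in liver and Sdhb in muscle, and Sdha then led complex II of cortex in each set.

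The muscle isoforms of 3 complex IV subunits set muscle apart from the other tissues. Cox6a2, the heart and skeletal muscle form, lay between 1578 and 2334 CPM in AL muscle of mice 1-16 with a median of 2066, between 5.9 and 9.53 CPM in cortex, and at or below 0.362 CPM in liver, where the median library had no count. Cox7a1, the muscle partner of Cox7a2, ran from 389 to 830 CPM in muscle with a median of 598, from 1.52 to 4.68 in liver and from 0.867 to 2.37 in cortex. Cox8b, the muscle partner of Cox8a, ran from 773 to 1216 CPM in muscle with a median of 997, and stayed under 1 CPM in each liver library at a highest value of 0.979. For each of these 3 genes, every muscle library was above every library of the other tissues. The widely expressed partner Cox6a1 had the reverse order, at 384 to 602 CPM in liver, 311 to 530 in cortex and 40.1 to 81.2 in muscle, with a log2 difference of -3.13 between muscle and liver (adjusted p = 6.0e-17). Cox8a had its highest range in cortex, at 332 to 557 CPM, then 181 to 286 in liver and 43.6 to 89.3 in muscle. Its ranges did not overlap between the 3 tissues. Cox7a2, the partner of Cox7a1, was called higher in muscle than in cortex of mice 1-16, and was not called lower in muscle than in liver.

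As a share of the pair per length, Cox6a2 made up a median of 97.4% in AL muscle of mice 1-16 and 1.91% in cortex, Cox8b 96.1% in muscle and 0.128% in cortex, and Cox7a1 75.9% in muscle, 3.21% in liver and 1.82% in cortex. The shares depend on the length used. With the canonical transcript length of the reference, a choice made after seeing the data, the Cox8b share in AL muscle was 78.9%, and with raw counts it was 93.5%. Cox4i2, the oxygen-responsive form of the Cox4 subunit, gave a median share of at most 0.892% in any group. Cox6b2 gave 1.02% of its pair in AL cortex of mice 1-16 and less than that in liver and muscle, at medians of 0.167% and 0.0756%. The Cox8b share in cortex passed 0.8% in 4 of the libraries, mice 4, 11, 34 and 36, singled out after their values were seen, and the highest was 1.26%.

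**Figure D1:**
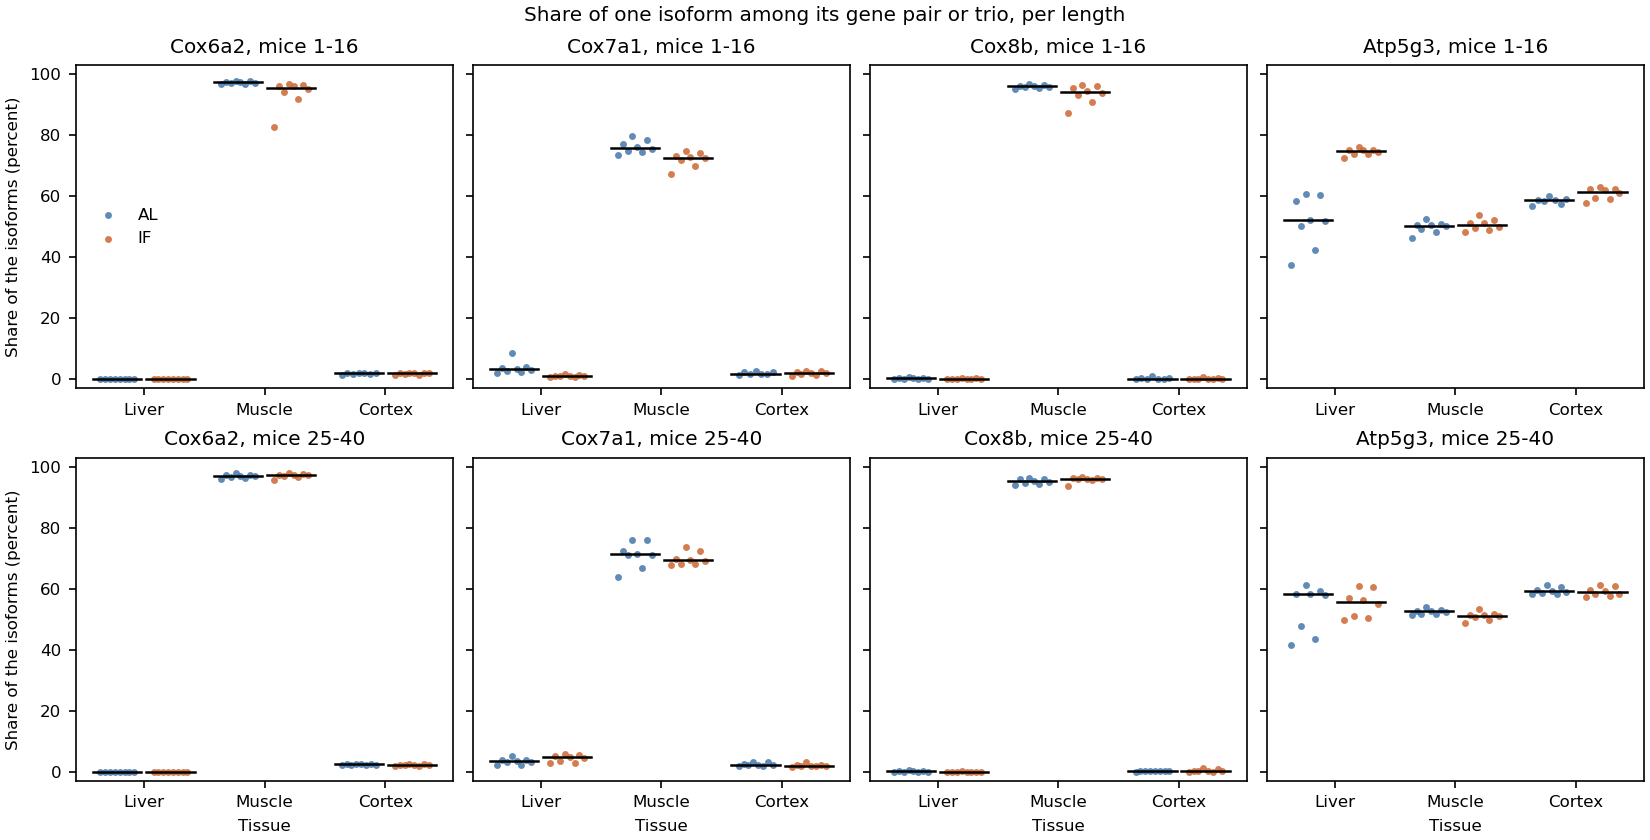
Share of Cox6a2, Cox7a1, Cox8b and Atp5g3 among the isoforms of their subunit, in percent of counts per kilobase on the vertical axis, for liver, muscle and cortex libraries of AL (blue) and IF (orange) mice, with 1 point per library and a black line at the median. The first 3 are at 63.9% or more in muscle and at 8.71% or less elsewhere, and the Atp5g3 share in liver of mice 1-16 lies at 72.6% to 76.1% under IF and at 37.3% to 60.8% under AL.

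The next comparisons asked which subunits differed between IF and AL within each tissue and set. In liver of mice 1-16, 38 of the 82 members tested were higher and 9 lower under IF, beside 23.5% of all genes higher and 21.1% lower, and the median log2 fold change of the members was 0.29 against 0.06 over all genes. In bulk tissue, fewer cells of a type and less RNA per cell cannot be told apart. Complex V gave 9 higher and 2 lower of 17 tested, complex I 16 and 4 of 37, complex III 5 and 1 of 9, complex IV 6 and 2 of 15, and complex II 2 and 0 of 4. The 4 members of complex II were Sdhd and Sdha, which rose, and Sdhb and Sdhc, which did not pass. The summed level of complex V ran from 2995 to 4456 CPM under AL with a median of 3711, and from 4703 to 7907 CPM under IF with a median of 5582. The groups did not overlap for complex V, and with this scaling that held for no other complex in any tissue and set. With the library total in place of the scaled total, the groups were also apart in liver of mice 1-16 for complex III, at no more than 2834 CPM under AL and at least 2871 CPM under IF, for complex IV, at 3837 and 3910 CPM, and for all members, at 16379 and 17800 CPM. The sum over all members ran from 11980 to 18330 CPM under AL and from 16107 to 26274 CPM under IF, with overlap under the scaled total. Leaving out each library in turn gave between 36 and 41 higher and between 9 and 11 lower members. Without mice 2 and 10 together there were 14 lower, beside 3236 of 16131 genes.

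**Figure D2:**
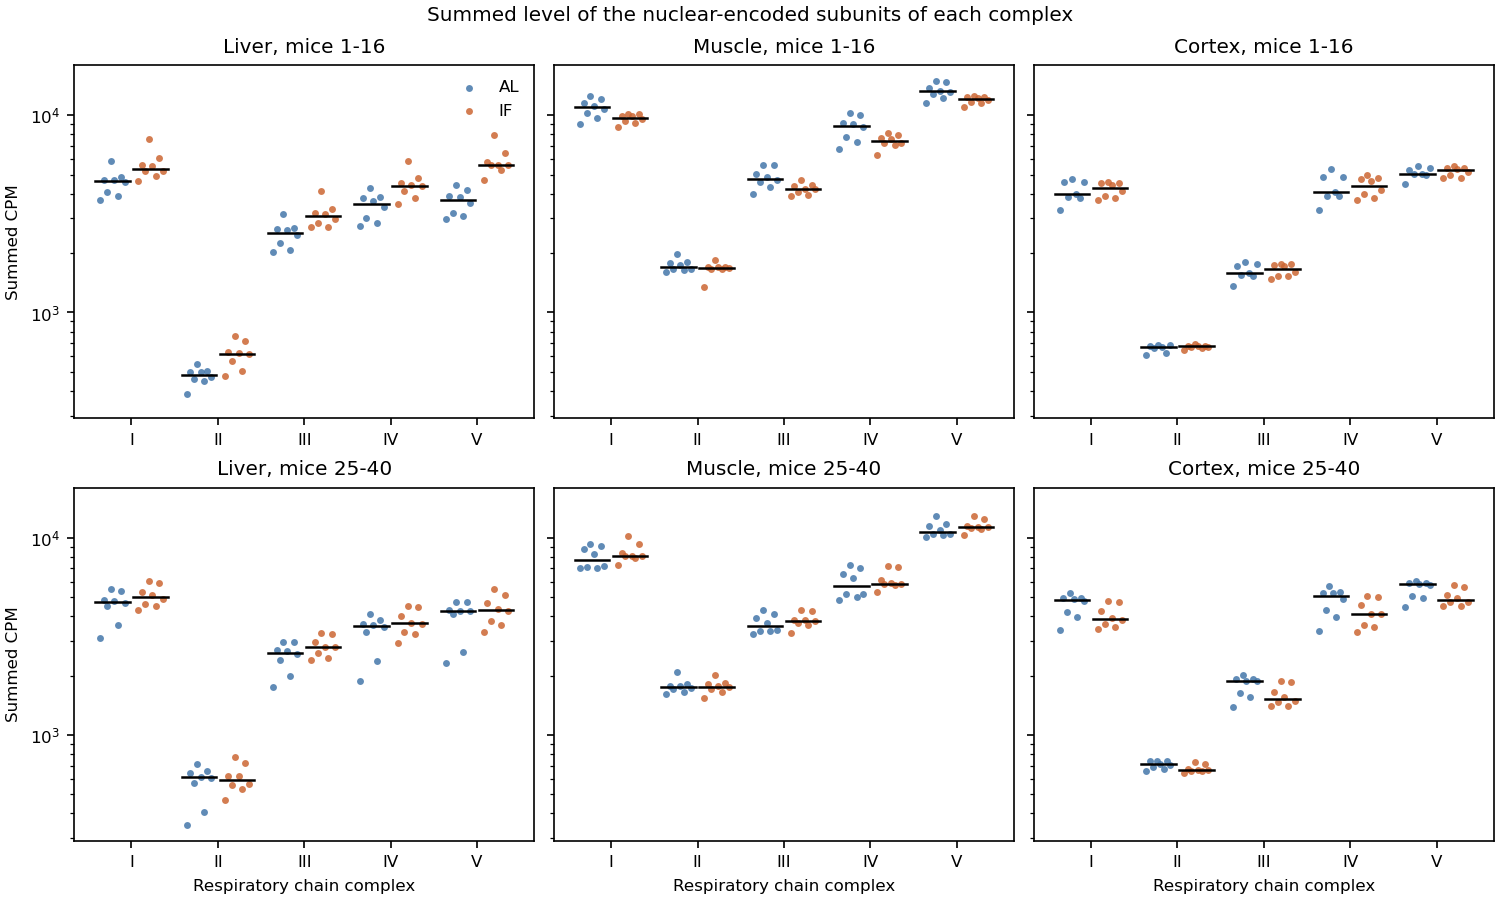
Summed CPM of the members of each complex on a log axis, for AL (blue) and IF (orange) libraries of each tissue and set, with 1 point per library and a black line at the median. Values are scaled within each panel and not between tissues, and with this scaling the AL and IF points of complex V in liver of mice 1-16 do not overlap, at no more than 4456 CPM under AL and at least 4703 CPM under IF.

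In the ATP synthase, the largest rise in liver of mice 1-16 was that of Atp5b, the catalytic beta subunit, which lies on chromosome 10. It ran from 238 to 475 CPM under AL with a median of 338, and from 886 to 1448 CPM under IF with a median of 1107, a log2 fold change of 1.71 (SE 0.133, adjusted p = 4.9e-10). All 8 IF libraries were above all 8 AL libraries. Atp5g3, which makes one of the 3 precursors of the same membrane-ring subunit c, ran from 108 to 289 CPM under AL with a median of 207 and from 468 to 778 CPM under IF with a median of 599, a log2 fold change of 1.61 (SE 0.178, adjusted p = 1.4e-07). Its groups did not overlap, whereas the partners Atp5g1 and Atp5g2 did not pass, at log2 fold changes of 0.29 and 0.17. The Atp5g3 share of the trio per length had medians of 52.2% under AL and 74.8% under IF, and in mice 25-40 of 58.2% and 55.7%. With canonical lengths, chosen after seeing the data, the medians in mice 1-16 were 34.3% and 58.7%. Atp5d, the delta subunit of the central stalk, had a median of 255 CPM under AL and 602 CPM under IF, with ranges of 211 to 306 and 540 to 935 CPM that did not overlap (log2 fold change 1.31, adjusted p = 6.2e-09). Atp5j, the coupling factor of the peripheral stalk, had the largest fall of the complex, from 271 to 389 CPM with a median of 332 under AL to between 182 and 247 CPM with a median of 218 under IF, at a log2 fold change of -0.61 (SE 0.102, adjusted p = 3.2e-05). Every IF library was below every AL library. Atp5md, a small membrane subunit, was the other one that fell, at a log2 fold change of -0.58.

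In complex IV, the largest rise was that of Cox7a2l, a relative of the Cox7a subunits, encoded on chromosome 17. It ran from 17.3 to 43.6 CPM under AL with a median of 28.1 and from 126 to 238 CPM under IF with a median of 154, a log2 fold change of 2.44 (SE 0.159, adjusted p = 3.4e-11). The groups were far apart, with mouse 10 the highest of the IF libraries and the next at 167 CPM. Cox7a2 ran from 78.3 to 157 CPM under AL with a median of 123 and from 249 to 418 CPM under IF with a median of 303 (log2 fold change 1.32, adjusted p = 2.1e-08), again without overlap. Cox4i1, the widely expressed form of a subunit at which ATP regulates the enzyme, rose by a log2 fold change of 0.86 (adjusted p = 1.7e-05), from a median of 567 to 966 CPM, and its groups did not overlap. Cox5a, Ndufa4 and Cox8a also rose, at log2 fold changes of 1.86, 1.35 and 0.37, and all 8 IF libraries were above the AL median for the first pair and 7 of 8 for Cox8a. The members that fell were Cox7b, from a median of 201 to 143 CPM (log2 fold change -0.49, SE 0.119, adjusted p = 0.0016), and Cox7c, at the same log2 fold change of -0.49. All 8 IF libraries of Cox7b were below the AL median, with overlap of the groups at the edges. Cox6a1 and Cox6b1 did not pass, at 0.13 and -0.23, and the muscle isoforms Cox6a2 and Cox8b had too few counts in liver to be tested.

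In complex III, Uqcrh, the hinge protein between cytochrome c1 and cytochrome c, ran from 64.1 to 129 CPM under AL with a median of 104 and from 233 to 414 CPM under IF with a median of 271 (log2 fold change 1.54, SE 0.144, adjusted p = 7.3e-09). Cyc1, the cytochrome c1 that passes electrons on, ran from 144 to 179 CPM under AL and from 265 to 363 CPM under IF, with medians of 174 and 303 (log2 fold change 0.82, adjusted p = 1.3e-07). Neither gene had an IF library within the range of the AL libraries. Uqcr10, Uqcrc1 and Uqcr11 rose as well, and Uqcr11 by a log2 fold change of 0.39. Uqcrb, which binds the quinone pocket, was the one that fell, from a median of 204 to 123 CPM (log2 fold change -0.76, SE 0.134, adjusted p = 6.3e-05). Each IF library of Uqcrb was below the AL median and the groups overlapped. Uqcrq, the leader of complex III in liver, did not pass, at medians of 1132 and 1120 CPM.

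In complex II, Sdhd, one of the membrane anchors, ran from 37 to 55.2 CPM under AL with a median of 46 and from 70.9 to 127 CPM under IF with a median of 109 (log2 fold change 1.21, SE 0.118, adjusted p = 1.4e-08). Sdha, the flavoprotein that oxidises succinate, had medians of 83.9 and 182 CPM (log2 fold change 1.01, adjusted p = 8.1e-08). The groups of Sdhd and of Sdha did not overlap. The iron-sulfur subunit Sdhb had a median of 249 CPM under AL and 211 CPM under IF and did not pass (log2 fold change -0.11).

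In complex I, the largest rise was that of Ndufs6, a zinc-binding accessory subunit, which ran from 69 to 131 CPM under AL with a median of 89.1 and from 166 to 295 CPM under IF with a median of 223 (log2 fold change 1.31, SE 0.132, adjusted p = 2.4e-08). Ndufs4, a subunit of the electron-input arm that the study names in a downregulated network of skeletal muscle, ran from 41.5 to 63.5 CPM under AL and from 71.2 to 117 CPM under IF. Its medians were 52.9 and 87.7 CPM (log2 fold change 0.79, adjusted p = 4.3e-06). The groups of neither gene overlapped, and the accessory subunit Ndufa2, with medians of 187 and 343 CPM and a log2 fold change of 0.85, was without overlap too. Ndufb8, an accessory subunit of the membrane arm, rose by a log2 fold change of 0.62 with overlap. The 4 members that fell were Ndufb4, Ndufs8, Ndufb1 and Ndufa10. Ndufb4, an accessory subunit of the membrane arm, ran from 87.2 to 158 CPM under AL with a median of 134 and from 49.8 to 86.4 CPM under IF with a median of 74 (log2 fold change -0.84, SE 0.134, adjusted p = 1.7e-05). Every IF library of Ndufb4 was below every AL library.

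**Figure D3:**
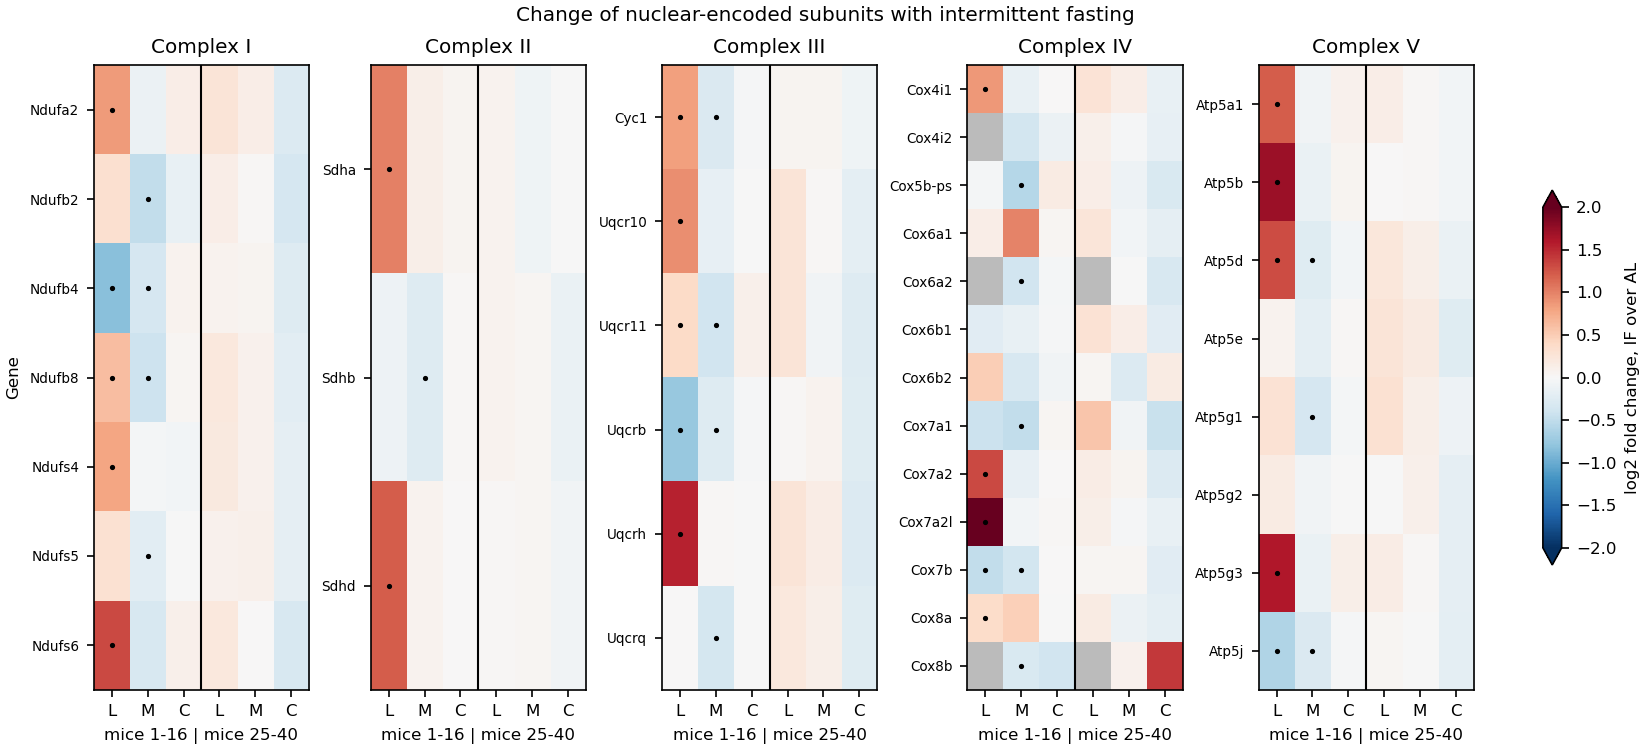
Log2 fold change of IF over AL (colour, from -2 to 2) for the members described one by one, by complex on the vertical axis, in liver (L), muscle (M) and cortex (C) of mice 1-16 and mice 25-40. A dot marks an adjusted p under 0.05 and grey marks a gene not tested, and the dots lie in liver and muscle of mice 1-16 alone.

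In liver of mice 25-40, no member was called in either direction by edgeR's quasi-likelihood test, 0 of 83, beside 0% of all genes higher and 0% lower. At an unadjusted p under 0.05 there were 3, Ndufb7, Ndufs7 and Cox7a1, all higher, named after their values were seen, beside 2.64% of all genes higher and 3.13% lower at that p. DESeq2 called 0 members, beside 6 of 15938 genes higher and 0 lower. The median log2 fold change of the members was 0.14 against -0.01 over all genes, and 77 of the 83 had a value above 0. Atp5b ran from 235 to 638 CPM under AL and from 308 to 616 CPM under IF, with medians of 498 and 457, and Cox7a2l from 26.9 to 77.7 and from 33.2 to 82.5 CPM, with medians of 51.4 and 56.4. For Atp5b and Cox7a2l the IF range lay largely inside the AL range. Summed over all members the AL libraries ran from 9413 to 18002 CPM and the IF libraries from 13424 to 20040 CPM, with medians of 15882 and 16164.

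The difference between the liver responses of the sets was tested as an interaction, which shares its libraries with the comparisons within each set. The response was higher in mice 1-16 than in mice 25-40 for 22 of 84 members and lower for 13, beside 10.9% and 12.8% of all genes, with a median difference of 0.15 against 0.04. The members with a higher response included Cox7a2l, at a log2 difference of 2.28 (SE 0.294, adjusted p = 6.4e-07), Atp5b at 1.67 (adjusted p = 3.2e-06), Atp5g3 at 1.43 (adjusted p = 0.0021), Uqcrh at 1.25, Sdhd at 1.16 and Ndufs6 at 1.07. Those with a lower response included Ndufb4 at -0.95 (adjusted p = 9.9e-05), Uqcrb at -0.82, Atp5j at -0.69 and Cox7b at -0.56. Each of these had also been called within mice 1-16 in the same direction. Cox7a1, which reached at most 4.82 CPM in a liver library, had a lower response of -1.02, and in neither set alone did it pass. Ndufs4 and Ndufb8 were not called in this test.

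In muscle of mice 1-16 no member was higher and 34 of 85 were lower under IF, beside 11.5% of all genes higher and 11.6% lower, with a median log2 fold change of -0.20 against 0.01 over all genes. By edgeR's unadjusted p under 0.05 there was 1 higher member, beside 17.4% of all genes higher, and DESeq2 called 1 higher, beside 1874 of 15025 genes. The falls were spread over the chain, with 15 of 37 in complex I, 2 of 4 in complex II, 5 of 9 in complex III, 6 of 18 in complex IV and 6 of 17 in complex V. All 34 had overlapping groups, and the sum over all members ran from 32836 to 45082 CPM under AL with a median of 39527 and from 32196 to 37327 CPM under IF with a median of 35288. The count of falls rested on single libraries more than in liver. It was 20 without mouse 1 or without mouse 3, 21 without mouse 2, mouse 6 or mouse 16, 51 without mouse 8, and 12 when the 3 tissues were fitted together. Over all genes, 958 of 21608 were lower in muscle when the tissues were fitted together, against 1737 of 15025 in muscle alone. Counts over all genes for the fits without 1 library are not given here.

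Among the complex IV isoforms of muscle, Cox6a2 ran from 1245 to 1817 CPM under AL with a median of 1628 and from 894 to 1406 CPM under IF with a median of 1181 (log2 fold change -0.38, SE 0.0959, adjusted p = 0.0072). Cox7a1 ran from 294 to 646 CPM under AL with a median of 469 and from 245 to 380 CPM under IF with a median of 355 (log2 fold change -0.50, SE 0.132, adjusted p = 0.012), and Cox8b had medians of 782 and 639 CPM (log2 fold change -0.31, adjusted p = 0.033). For Cox6a2, Cox7a1 and Cox8b all 8 IF libraries were below the AL median while the ranges overlapped, and none of them passed when the 3 tissues were fitted together, at adjusted p of 0.328, 0.0767 and 0.724. The share of Cox7a1 in its pair had medians of 75.9% under AL and 72.7% under IF, and that of Cox8b 96.1% and 94.1%. The partners Cox6a1 and Cox8a did not pass, with medians of 41.8 and 58.6 CPM for Cox6a1 (log2 fold change 0.99) and of 57.5 and 62.2 CPM for Cox8a (log2 fold change 0.48). Mouse 12 had Cox6a1 at 249 CPM where the other IF libraries reached at most 108 CPM. DESeq2 called Cox6a1 higher, at an adjusted p of 0.0333. The largest fall in complex IV was that of Cox5b-ps, at a log2 fold change of -0.57 (adjusted p = 0.041), and Cox5b, the gene that it copies, had -0.40. With the replicate block neither Cox5b-ps nor Cox8b passed, at adjusted p of 0.128 and 0.0518. The reads of a gene and of its near-identical copy may have been divided between them, so these values are uncertain, and so are those of the 54 members that overlap another annotated gene, since the strand setting of the counting is not given in the sources used here.

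In the other complexes of muscle, Ndufb2, an accessory subunit of complex I, ran from 19.1 to 43.1 CPM under AL with a median of 38.3 and from 20.8 to 27.9 CPM under IF with a median of 26 (log2 fold change -0.50, SE 0.119, adjusted p = 0.0049). Mouse 8 was the lowest AL library, and every other AL library was above every IF library. Atp5g1, a precursor of subunit c, ran from 553 to 881 CPM under AL with a median of 698 and from 515 to 599 CPM under IF with a median of 557 (log2 fold change -0.34, SE 0.0761, adjusted p = 0.0024). Its IF libraries were all below the AL median. In complex II the other fall was that of Sdhc, at -0.18, and in complex III Uqcrq, Uqcrb and Uqcrc1 fell by 0.35, 0.26 and 0.20. Uqcr11, the smallest subunit of complex III, and Sdhb had log2 fold changes of -0.39 and -0.26 (adjusted p = 0.039 and 0.021), and without mice 2 and 10 neither passed, at 0.0707 and 0.0635. Ndufb4, Ndufb8, Cyc1, Atp5j and Atp5d also fell, at -0.33, -0.41, -0.30, -0.29 and -0.25, of which Atp5d did not pass with one fit over 3 tissues (adjusted p = 0.117) and Ndufb8 with no expression filter (adjusted p = 0.0545). Atp5b did not pass, with medians of 2840 and 2641 CPM and none of the IF libraries above the AL median (log2 fold change -0.13, adjusted p = 0.051), and neither did Atp5a1, Sdha, Sdhd or Ndufs4.

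In muscle of mice 25-40, 0 of 85 members were called in either direction by edgeR's quasi-likelihood test, beside 0.00653% of all genes higher and 0% lower. At an unadjusted p under 0.05 there were 3, Ndufa11, Ndufa9 and Atp5md, all higher and named after their values were seen, beside 5.1% of all genes higher and 5.64% lower at that p. DESeq2 called 0 members, beside 55 of 15308 genes higher and 36 lower. The member median was 0.07 against -0.02 over all genes, and the sum over all members had medians of 29436 CPM under AL and 30945 CPM under IF. As an interaction, the response in muscle was lower in mice 1-16 than in mice 25-40 for 14 of 85 members and higher for none, beside 6.77% of all genes higher and 7.38% lower, with a median of -0.29 against 0.01. At an unadjusted p under 0.05 there was 1 with a higher response, beside 13.7% of all genes. DESeq2 called 0 members higher and 24 lower, beside 1284 and 1372 of 16346 genes. With the replicate block 8 were lower, 7 of them among the 14, beside 1113 of 16346 genes lower. The 14 included Atp5g1 at -0.48 (SE 0.115, adjusted p = 0.0048), Cyc1 at -0.37, Atp5d at -0.38, Cox7b at -0.43 and Atp5j at -0.31, and 7 of them were in complex V. None of Cox6a2, Cox7a1 and Cox8b was among them.

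In cortex of mice 1-16, 0 of 86 members were called by edgeR's quasi-likelihood test, beside 3.79% of all genes higher and 3.43% lower, and the member median was -0.00 like that of all genes. At an unadjusted p under 0.05 there were 4, with 3 higher and 1 lower, beside 12.1% of all genes higher and 11.7% lower at that p. DESeq2 called 1 member higher, beside 1190 of 18462 genes higher and 1069 lower. The sum over all members ran from 13096 to 18090 CPM under AL and from 14350 to 17357 CPM under IF. In cortex of mice 25-40, 0 of 85 were called, beside 0% of all genes higher and 0.0109% lower, with 27 lower and none higher at an unadjusted p under 0.05, where 4.74% of all genes were lower and 6.5% higher. DESeq2 called 1 member lower, Ndufb2, beside 41 of 18403 genes lower and 32 higher. Ndufb2 ran from 20.7 to 30.6 CPM under AL with a median of 27.5 and from 17.8 to 24 CPM under IF with a median of 21.9. All 8 IF libraries of Ndufb2 were below the AL median. The median over members was -0.18 against 0.00 over all genes, and 4 of the 85 had a value above 0. As an interaction, the sets did not differ in cortex for any of 86 members by edgeR, beside 0.967% of all genes higher and 1.06% lower, with 12 higher at an unadjusted p under 0.05, where 6.93% of all genes were higher and 8.46% lower. DESeq2 called 1 member higher, Atp5k, beside 343 of 19547 genes higher and 363 lower.

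Whether the tissues of the same mice differed in their response was tested as the difference of the fold changes, over libraries shared with the comparisons above. In mice 1-16 the response of muscle was below that of liver for 43 of 86 members and above it for 6, beside 17% of all genes above and 16.6% below, with a median of -0.48 against -0.00. Of the members called within both tissues, 11 had risen in liver and fallen in muscle and 7 had fallen in both. These calls came from the fits within each tissue. With one fit over 3 tissues, 12 of the 34 falls in muscle passed and Atp5d was not among them. That fit called 958 of 21608 genes lower in muscle. Of the 1598 genes called in both, 418 had risen in liver and fallen in muscle, 316 the reverse, 538 had risen in both and 326 had fallen in both. Atp5d had a difference of -1.51 (SE 0.144, adjusted p = 9.6e-12), Cyc1 of -1.07 (adjusted p = 4.4e-12) and Ndufb8 of -0.99 (adjusted p = 2.5e-06), and these 3 had the largest differences of the 11. Ndufs4, with no call in muscle, had a difference of -0.79. The 6 called above 0 were Cox6a1 at 0.91, Ndufb4 at 0.55, Uqcrb at 0.54, Ndufa10 at 0.51, Ndufs8 at 0.38 and Atp5j at 0.36, and apart from Cox6a1 they were members that fell in liver. Cortex against liver gave 9 above and 34 below of 86, beside 14.5% and 15.7% of all genes, with Cox7a2l at -2.39 and Ndufb4 at 0.93. Muscle against cortex gave 0 of 86 by edgeR, beside 3.15% and 2.05% of all genes, with 14 lower and 1 higher at an unadjusted p under 0.05, where 8.21% of all genes were lower and 10.1% higher. DESeq2 called 2 members lower, beside 833 of 21608 genes lower and 879 higher.

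In mice 25-40 none of the 85 members differed between tissues in their response by edgeR. The shares of all genes were 0.0235% above and 0.0376% below for muscle against liver, 0.0047% and 0% for muscle against cortex, and 0.0282% and 0.0282% for cortex against liver. At an unadjusted p under 0.05 the members numbered 1, 15 and 32 in that order, and DESeq2 called 0 in each. The 1 member of muscle against liver was lower, 14 of the 15 were higher, and the 32 were all lower. At that p, 4.64% of all genes were lower in the first, 3.1% higher in the second and 5.49% lower in the third. Of the 21292 genes tested, DESeq2 called 98 above and 118 below in the first. It called 14 and 16 in the second, and 141 and 128 in the third.

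The mitochondrially encoded subunits, the partners of these proteins in complexes I, III, IV and V, went another way in liver of mice 1-16. Of the 13, none was higher and 10 were lower under IF, beside 23.5% of all genes higher and 21.1% lower, and their median log2 fold change was -1.12 against 0.06 over all genes. At the median library they summed to 215730 CPM under AL, in a range of 130023 to 256016, and to 92893 CPM under IF, in a range of 78180 to 125612. The groups did not overlap, and mt-Co1 was the most abundant in each. The largest change of the list was that of mt-Nd6, which encodes a membrane subunit of complex I, from 3144 to 7358 CPM under AL with a median of 5518 to between 892 and 2175 CPM with a median of 1369 under IF (log2 fold change -1.94, SE 0.186, adjusted p = 1.4e-08). In muscle of mice 1-16, 4 of 13 were lower beside 11.6% of all genes, mt-Nd2, mt-Nd3, mt-Nd4 and mt-Atp8, and the sums had medians of 113686 and 96047 CPM and ranges of 103974 to 119800 CPM under AL and 68568 to 135086 CPM under IF. Of the IF libraries 7 were below every AL library, and mouse 11, the highest, was above them all. The list gave 0 of 13 in cortex of mice 1-16 and in liver and muscle of mice 25-40. In cortex of mice 25-40 mt-Atp6, a subunit of the proton channel of complex V, fell from between 137 and 774 CPM with a median of 287 to between 35.8 and 109 CPM with a median of 57.1 (log2 fold change -2.43, SE 0.35, adjusted p = 0.043), without overlap. It did not pass with the replicate block, at an adjusted p of 0.204, nor with no expression filter, at 0.0706.

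Assembly factors help to build the complexes and are absent from the finished enzyme. The counts of this and the next lists stand beside 23.5% of all genes higher and 21.1% lower in liver of mice 1-16, and 11.5% and 11.6% in muscle, and with so few genes they are given as descriptions. In liver of mice 1-16, 3 of 21 for complex I were higher, Nubpl, Ndufaf8 and Ndufaf2, and 7 lower, with a list median of -0.14. For complex II, Sdhaf3 and Sdhaf4 of 4 were lower, for complex III Uqcc1 was higher and Bcs1l and Uqcc2 lower of 6, for complex IV 5 of 23 were higher, Surf1, Coa3, Coa5, Cmc2 and Taco1, and 7 lower, and for complex V Atpaf1 of 2 was lower. The largest changes were those of Nubpl, which delivers iron-sulfur clusters to complex I, at medians of 1.13 and 4.92 CPM (log2 fold change 2.26, adjusted p = 3.8e-08), and Pet100, a chaperone of complex IV, at 34.8 and 11.9 CPM (log2 fold change -1.47, adjusted p = 8.1e-07). The groups of Nubpl and of Pet100 did not overlap. In muscle of mice 1-16 none was higher. There, 2 of 21 for complex I (Ecsit and Tmem126a), 2 of 6 for complex III (Bcs1l and Uqcc2), 7 of 23 for complex IV and Atpaf1 for complex V were lower, and 0 of 4 for complex II. Cox11, with the largest change of the complex IV list in muscle, fell by 0.48 on the log2 scale. Cox11 did not pass with one fit over 3 tissues (adjusted p = 0.119), with no expression filter, without mice 2 and 10 or without mouse 12, and Atpaf1 did not with one fit (adjusted p = 0.0859). Bcs1l, which inserts the Rieske protein, fell in muscle by a log2 fold change of 0.42 without overlap of the groups. In cortex of mice 1-16, Foxred1 for complex I and Cox10 for complex IV rose, at log2 fold changes of 0.26 and 0.25. Neither passed with the replicate block or with one fit over 3 tissues. Foxred1 also did not pass without mice 2 and 10 (adjusted p = 0.0514) or with the left-out cortex library included (0.171), where Cox10 passed. In mice 25-40 no assembly factor was called in any tissue.

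The genes of the mobile carriers, cytochrome c and the synthesis of coenzyme Q, gave 5 higher and 6 lower of 17 in liver of mice 1-16. They gave 1 higher and 5 lower in muscle, and 1 higher in cortex, Coq8a. In cortex Coq8a did not pass with the replicate block (adjusted p = 0.083) or with one fit over 3 tissues (0.361). It also missed without mice 2 and 10 (0.0581) and with the left-out cortex library included (0.0726). In liver Coq10b, a coenzyme Q binding protein, rose from a median of 11.2 to 26.9 CPM without overlap (log2 fold change 1.35, adjusted p = 1.6e-07), and the other rises were those of Coq7, Coq8b, Coq10a and Etfdh. In muscle Coq8b rose by 0.54, and Cycs, Coq5, Coq8a, Coq9 and Coq10a fell. The rise of Coq8b did not pass under the replicate block (adjusted p = 0.0736) or without mouse 12 (adjusted p = 0.073). The citric acid cycle, which supplies NADH and succinate, had 5 higher and 3 lower of 13 in liver, and 3 lower of 13 in muscle. Suclg1, the shared alpha subunit of succinyl-CoA ligase, ran from 33.4 to 86.2 CPM under AL and from 132 to 229 CPM under IF in liver (log2 fold change 1.65, adjusted p = 6.6e-09) with no overlap. In muscle Suclg1 fell by 0.18 on the log2 scale. That fall did not pass with one fit over 3 tissues (adjusted p = 0.303) or with no expression filter (adjusted p = 0.0588). In cortex of mice 1-16 no gene of the cycle was called, and in mice 25-40 none of either list was called in any tissue.

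The regulators of mitochondrial gene expression stand beside the same shares of all genes, 23.5% higher and 21.1% lower in liver. Among 15, 4 were higher in liver of mice 1-16, Ppargc1a, Ppargc1b, Pprc1 and Yy1, and 5 lower, Esrrg, Gabpa, Gabpb1, Tfb1m and Polrmt. Esrrg, an orphan nuclear receptor that binds the same element as Esrra, ran from 1.59 to 3.99 CPM under AL and from 0.463 to 1.35 CPM under IF (log2 fold change -1.42, adjusted p = 0.00017), and the groups did not overlap. In muscle Ppargc1a, the coactivator that drives mitochondrial gene programmes, rose from a median of 16.3 to 29.4 CPM (log2 fold change 0.70, SE 0.123, adjusted p = 0.00042), while Esrra, its partner receptor, Perm1 and Yy1 fell, Esrra by 0.51 on the log2 scale. The list gave 0 of 15 in cortex of mice 1-16, and no call in mice 25-40 in any tissue.

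Other gene lists moved with the same groups, and their part in the results above was not tested. In liver of mice 1-16, 60 of 76 cytosolic ribosomal protein genes were higher under IF and none lower, with a median of 0.68, and they summed to between 12982 and 18118 CPM under AL and between 22852 and 36606 CPM under IF. The groups did not overlap, Rpsa was the most abundant under AL and Rplp1 under IF, none was at 0, and Rpl41 had the largest change at 2.18. In muscle 1 was higher and 4 lower of 76, among which Rpl23a fell by 0.27 and did not pass with one fit over 3 tissues (adjusted p = 0.217). In neither cortex nor mice 25-40 was one called. Of 5 erythrocyte markers 3 were higher in liver, Hba-a1, Hbb-bs and Hbb-bt, with none at 0 and none lower. They summed to between 393 and 886 CPM under AL, where Hba-a1 was the most abundant, and between 665 and 6120 CPM under IF, where Hbb-bs was and mouse 9 was the highest, and the groups overlapped. Without mice 9 and 10, an alternative chosen after seeing the data, the liver counts moved by less than 1.5 times. Of 5 hepatocyte markers, all 5 tested in liver, Apoa1 and Fgb were lower, and the sums had medians of 61324 and 50522 CPM with Alb the most abundant and none at 0. Adipocyte markers had 2 tested in liver, of which Cfd was lower, at summed medians of 29.8 and 7.39 CPM, with Cfd the most abundant under AL, Cidec under IF and Lep at 0 under IF. Among other lists in liver, Tnnc1 of 2 slow fibre markers tested was higher and Syt1 of 2 neuron markers. Of 4 astrocyte markers Aldh1l1, itself abundant in liver, and Gja1 were higher and Aqp4 lower. Skeletal muscle and cardiac markers gave 0 of 1 each, and no fast fibre marker was tested.

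In muscle of mice 1-16, 4 of 5 adipocyte markers were higher under IF, Adipoq, Plin1, Cfd and Cidec, where the list's median log2 fold change was 2.25 and no marker was at 0. They summed to between 30.1 and 341 CPM under AL with a median of 99.1, the highest in mouse 2, and to between 113 and 1735 CPM under IF with a median of 690.3, the highest in mouse 12. The groups overlapped, and Cfd was the most abundant. Without mouse 12, chosen after seeing the data, the number of members that fell moved by less than 1.5 times. Of 5 skeletal muscle markers Ckm, Mb and Mylpf were lower, with medians of the sum of 101196 and 88155 CPM, Acta1 the most abundant and none at 0. The 6 slow or oxidative fibre markers were not called, with a list median of -0.996 and sums of 411 to 3473 CPM under AL and 114 to 1134 CPM under IF that overlapped, and the 6 fast fibre markers were not called either, at medians of 85101 and 83716 CPM. Of 4 astrocyte markers tested in muscle, all of them expressed there, Aldh1l1, Slc1a3 and Gja1 were higher, and the sums ran from 20.5 to 31.5 CPM under AL and from 29.5 to 42.8 CPM under IF, with Aqp4 the most abundant and none at 0. Erythrocyte, hepatocyte, neuron, oligodendrocyte and cardiac markers gave 0 calls of 5, 1, 1, 3 and 2 tested.

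In cortex of mice 1-16, 4 of 5 oligodendrocyte markers were higher under IF, beside 3.79% of all genes higher and 3.43% lower, at sums of 4320 to 6779 CPM under AL and 5943 to 9951 CPM under IF, with Mbp the most abundant and none at 0. Aqp4 of 5 astrocyte markers was lower and Myh6 of 2 cardiac markers tested was higher, and no other marker list had a call. In mice 25-40 no marker was called in any tissue. The interaction of diet and set gave calls in many of the lists, of which some are given here as descriptions. In muscle, beside 6.77% of all genes higher and 7.38% lower, 3 of 5 adipocyte and 3 of 4 astrocyte markers were higher, and 2 of 5 skeletal muscle markers, 4 of 76 ribosomal protein genes and 2 of 21, 2 of 6 and 4 of 23 assembly factors of complexes I, III and IV were lower. In cortex, beside 0.967% and 1.06%, 4 of 5 oligodendrocyte markers and 3 of 13 mitochondrially encoded subunits were higher. In liver, beside 10.9% and 12.8%, 35 of 76 ribosomal protein genes and 2 of 5 erythrocyte markers were higher, and 6 of 13 mitochondrially encoded subunits, 1 of 5 hepatocyte markers and 6 of 23 assembly factors of complex IV were lower, with 2 of those 23 higher.

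Length and base composition of the members were described without a test. The canonical transcripts of the 38 that rose in liver of mice 1-16 had a median GC content of 51.8% and a median length of 1254 bases, those of the 9 that fell 47.8% and 971 bases, and those of the 35 not called 50.8% and 1101 bases. Over all genes tested the medians were 51.8%, 48.8% and 49.7% GC, and 3050, 2895 and 2928 bases. In muscle, the 34 that fell had 52.5% GC and the 51 not called 51.3%, where all genes that fell had 54.9% and all that rose 47.9%.

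Promoters of 70 members, 75 in all since 5 genes have 2, were taken from RefSeq on build GRCm38.p6 as 300 bases from 250 before to 50 after the start. They were searched on both strands for the letters of 4 elements named in the control of respiratory genes. The core bound by NRF1, GCGCATGC, was in 10 of the 75 (13.3%) against 2.71% of all 32851 promoters in the table. The core of ETS factors such as GABPA, CCGGAAG, was in 17 (22.7%) against 8.86%, the ERR element TCAAGGTCA in 2 (2.67%) against 0.423%, and the YY1 letters AAGATGGC in 10 (13.3%) against 2.75%. At least 1 of the 4 was in 32 of the 75 (42.7%), against 13.7% of all promoters. A match describes letters only. Members without an entry included Ndufa2, Ndufb9, Ndufs1, Sdhc, Cyc1, Uqcrb, Uqcrc2, Uqcrq, Cox4i1, Cox4i2, Cox5b-ps, Cox6a2, Cox6c, Cox8c, Atp5a1 and Atp5mpl.

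The sequences shown are those of the members with the largest rise and the largest fall of each complex in liver of mice 1-16, where an entry was at hand, because these genes moved together or apart in the same livers. Bases in capitals mark a match to one of the letters searched, or to their reverse complement, and a promoter all in lower case holds none of them. On GRCm38.p6 they lie as follows, with Ndufs6 at chr13:73328433-73328732 on the reverse strand, Ndufb4 at chr16:37654319-37654618 on the reverse strand, Sdhd at chr9:50603800-50604099 on the reverse strand, Uqcrh at chr4:116075021-116075320 on the reverse strand. The others are Cox7a2l at chr17:83514284-83514583 on the reverse strand, Cox7b at chrX:106015450-106015749 on the forward strand, Atp5b at chr10:128083057-128083356 on the forward strand and Atp5j at chr16:84835576-84835875 and chr16:84834927-84835226 on the reverse strand. The matches are the YY1 letters in Ndufs6, the ETS letters in reverse and the ERR letters in reverse in Sdhd, the ETS letters in reverse in Uqcrh, and the YY1 and ETS letters in the promoter of Atp5j listed last.
Ndufs6: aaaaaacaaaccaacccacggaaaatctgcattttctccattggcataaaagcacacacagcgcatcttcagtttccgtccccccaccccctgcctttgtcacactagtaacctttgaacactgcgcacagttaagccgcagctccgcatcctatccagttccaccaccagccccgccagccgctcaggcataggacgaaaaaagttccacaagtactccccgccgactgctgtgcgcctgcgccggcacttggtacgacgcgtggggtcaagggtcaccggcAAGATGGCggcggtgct
Ndufb4: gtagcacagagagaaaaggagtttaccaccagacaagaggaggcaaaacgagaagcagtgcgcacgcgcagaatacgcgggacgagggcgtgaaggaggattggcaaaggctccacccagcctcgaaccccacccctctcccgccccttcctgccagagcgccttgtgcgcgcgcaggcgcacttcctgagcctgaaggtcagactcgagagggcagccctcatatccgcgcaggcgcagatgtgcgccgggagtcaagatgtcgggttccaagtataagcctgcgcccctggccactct
Sdhd: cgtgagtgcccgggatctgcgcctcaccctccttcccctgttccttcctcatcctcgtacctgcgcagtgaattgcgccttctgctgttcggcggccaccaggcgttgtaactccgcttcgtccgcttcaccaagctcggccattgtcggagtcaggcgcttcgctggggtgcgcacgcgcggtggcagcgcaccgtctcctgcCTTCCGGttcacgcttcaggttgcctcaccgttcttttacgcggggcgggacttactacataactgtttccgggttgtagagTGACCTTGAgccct
Uqcrh: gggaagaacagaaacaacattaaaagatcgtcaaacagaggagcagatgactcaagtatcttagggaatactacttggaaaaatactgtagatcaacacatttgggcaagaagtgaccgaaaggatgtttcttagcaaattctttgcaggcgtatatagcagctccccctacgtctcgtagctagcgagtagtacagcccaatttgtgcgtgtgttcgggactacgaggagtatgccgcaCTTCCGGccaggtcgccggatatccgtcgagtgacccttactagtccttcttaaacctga
Cox7a2l: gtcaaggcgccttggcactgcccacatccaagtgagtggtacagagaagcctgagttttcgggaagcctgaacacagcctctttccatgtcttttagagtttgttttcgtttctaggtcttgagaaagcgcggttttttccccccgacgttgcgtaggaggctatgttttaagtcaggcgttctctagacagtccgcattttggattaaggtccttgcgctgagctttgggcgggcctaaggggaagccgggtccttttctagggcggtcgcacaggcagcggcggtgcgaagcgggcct
Cox7b: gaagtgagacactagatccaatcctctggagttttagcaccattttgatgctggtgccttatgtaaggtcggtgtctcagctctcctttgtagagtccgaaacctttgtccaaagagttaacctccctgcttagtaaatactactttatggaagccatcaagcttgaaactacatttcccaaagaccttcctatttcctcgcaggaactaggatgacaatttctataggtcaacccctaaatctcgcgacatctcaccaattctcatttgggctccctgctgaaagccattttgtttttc
Atp5b: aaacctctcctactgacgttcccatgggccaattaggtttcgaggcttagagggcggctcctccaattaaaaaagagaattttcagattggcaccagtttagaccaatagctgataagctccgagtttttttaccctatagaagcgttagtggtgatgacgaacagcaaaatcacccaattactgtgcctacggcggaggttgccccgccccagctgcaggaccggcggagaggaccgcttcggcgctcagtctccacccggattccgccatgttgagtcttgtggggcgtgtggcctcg
Atp5j: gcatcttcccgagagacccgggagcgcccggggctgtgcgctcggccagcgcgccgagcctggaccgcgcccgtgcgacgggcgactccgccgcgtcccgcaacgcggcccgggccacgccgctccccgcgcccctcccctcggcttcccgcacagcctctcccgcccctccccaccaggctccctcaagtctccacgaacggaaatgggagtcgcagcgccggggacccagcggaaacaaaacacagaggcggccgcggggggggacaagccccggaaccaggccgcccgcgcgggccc
Atp5j: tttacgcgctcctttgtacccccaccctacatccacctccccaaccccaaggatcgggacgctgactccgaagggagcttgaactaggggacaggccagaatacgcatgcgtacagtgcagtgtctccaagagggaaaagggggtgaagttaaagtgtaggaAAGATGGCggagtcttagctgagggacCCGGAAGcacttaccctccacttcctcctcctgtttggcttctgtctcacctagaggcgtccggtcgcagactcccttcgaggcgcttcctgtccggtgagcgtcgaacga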

How the data were processed

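The gene counts were made by the authors with Hisat2 2.0.5 and featureCounts 1.5.0-p3 on the Ensembl annotation of GRCm39, and were used as deposited. CPM were counts over the library size scaled by TMM, within each tissue and set for diet and over the 3 tissues for levels between tissues. Genes passing filterByExpr (minimum count 10, minimum total 15) were tested with edgeR 4.0.16 quasi-likelihood fits (robust) in R 4.3.3, and p was adjusted by Benjamini-Hochberg over all genes tested in a comparison, with calls at 0.05. The SE was taken as the absolute log2 fold change over the root of F. DESeq2 1.42.0 gave the other test. Tables and drawings used Python 3.11.15, numpy 2.4.6, pandas 2.3.3, scipy 1.17.1 and matplotlib 3.10.9.

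Members and lists were chosen with earlier results of these data known. Genes named one by one were the isoform pairs, the called member with the largest rise and fall per tissue, set and complex at a mean of at least 10 CPM, the member with the highest level per length of the table in AL mice, the 3 members with the largest opposite calls between 2 tissues, Ndufs4, the gene of largest change in each list, and most members where 5 or fewer were counted.

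The 3 tissues carry the same library numbers, taken as the same mice. Correlations between tissues of the same number had medians from -0.0212 to 0.062 over the 3 pairs of tissues in each set and single values from -0.374 to 0.397, so this check was weak and the pairing rests on the labels. Alternatives tried were RLE and upper quartile scaling, DESeq2, no expression filter, a replicate block, one fit over 3 tissues, leaving out mice 2 and 10, library totals and raw counts in shares. Chosen after seeing the data were leaving out mice 9 and 10, mouse 26, mouse 12, mice 8 and 9, mouse 37, each library in turn, and canonical lengths. The library of cortex labelled AL male 1 was left out. Protein values were not analysed here.

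The lists were assembly factors of complexes I to V, cytochrome c and coenzyme Q, citric acid cycle, mitochondrially encoded subunits, regulators, cytosolic ribosomal proteins, and markers of erythrocytes, adipocytes, hepatocytes, skeletal muscle, slow and fast fibres, neurons, oligodendrocytes, astrocytes and cardiac muscle.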

Additional observations from a re-analysis of the deposited data

Results flagged for a closer look

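Among 148 groups screened for a library apart from the others of its group, 14 had one, and chance gives about 1 in 20 groups. In liver of IF mice 1-16, mouse 10 was above the others in the sum of complex III (4156 CPM), Cox7a2l (238.2 CPM), Cox4i1 (1423 CPM) and Atp5d (934.5 CPM), and mouse 16 in Cox6b2 (3.11 CPM). In liver of AL mice 1-16, mouse 2 was below the others in Cyc1 (144.3 CPM).

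In muscle, mouse 9 was below the other IF libraries in the sum of complex II (1339 CPM), and mouse 31 above the other AL libraries of mice 25-40 (2077 CPM). Mouse 8 was below the other AL libraries in Ndufb2 (19.08 CPM) and Cox5b-ps (27.96 CPM), and mouse 1 above them in Cox4i2 (8.453 CPM). Mouse 11 was below the other IF libraries in Uqcr11 (186.7 CPM) and Cox5b-ps (21.86 CPM), and mouse 12 above them in Cox6a1 (248.9 CPM).

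The response to IF differed between mice 1-16 and mice 25-40 for 35 members in liver and 14 in muscle. In liver the log2 difference was 1.072 for Ndufs6, -0.9461 for Ndufb4, 1.155 for Sdhd, 1.254 for Uqcrh, -0.8152 for Uqcrb and 0.7382 for Cyc1. In complex IV it was 2.282 for Cox7a2l, -0.5583 for Cox7b, -0.5467 for Cox6b1, -1.019 for Cox7a1 and 1.142 for Cox7a2. In complex V it was 1.667 for Atp5b, -0.6876 for Atp5j, 1.425 for Atp5g3 and 1.041 for Atp5d. In muscle it was -0.4752 for Atp5g1, -0.3751 for Atp5d and -0.3707 for Cyc1.

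In mice 1-16 the response differed between muscle and liver for 49 members and between cortex and liver for 43. Between muscle and liver the log2 difference was -1.509 for Atp5d, -1.074 for Cyc1, -0.9889 for Ndufb8 and -0.7949 for Ndufs4. The library of cortex labelled AL male 1 had Xist at 213.3 CPM, unlike the other male libraries, and was not used.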

How the results depend on the processing

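In liver of mice 1-16 the members lower under IF went from 9 to 14 with one fit over 3 tissues and to 14 without mice 2 and 10. Over all genes the lower calls there went from 3419 of 16204 to 4951 of 21608 and to 3236 of 16131. In muscle of mice 1-16 the members lower went from 34 to 12 with one fit over 3 tissues, 19 without mice 2 and 10, 20 without mouse 1 or mouse 3, and 21 without mouse 2, mouse 6 or mouse 16. Over all genes the lower calls in muscle went from 1737 of 15025 to 958 of 21608 with one fit, and to 1631 of 15029 without mice 2 and 10. The members higher there went from 0 to 1 with DESeq2, with one fit over 3 tissues, and without mice 8 and 9, mouse 9 or mouse 11. Over all genes, 1874 of 15025 were higher with DESeq2, 1237 of 21608 with one fit and 1907 of 14992 without mice 8 and 9. The cause was not tested.

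DESeq2 gave 1 higher member in cortex of mice 1-16, beside 1190 of 18462 genes, and 1 lower in cortex of mice 25-40, beside 41 of 18403. It gave 1 higher in the cortex interaction of diet and set, beside 343 of 19547. In the response of muscle against cortex in mice 1-16, RLE scaling gave 1 lower and DESeq2 gave 2, beside 560 and 833 of 21608 genes. With CAL1 included, no member was called in cortex of mice 1-16, beside 177 of 18332 genes higher and 117 lower.

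In the muscle interaction of diet and set the members lower went from 14 to 24 with DESeq2 and to 8 with the replicate block. Of 16346 genes, 1372 were lower with DESeq2 and 1113 with the block. With the replicate block 26 of the 34 falls in muscle of mice 1-16 passed, where 1577 of 15025 genes were lower. Cox5b-ps (adjusted p 0.128) and Cox8b (0.0518) were among those that did not. Of the members chosen by rule to be named one by one, no other missed the threshold within a tissue. Among genes of the other lists, mt-Atp6 in cortex of mice 25-40 (0.204), Coq8b in muscle (0.0736), and Foxred1 (0.079), Cox10 (0.057) and Coq8a (0.083) in cortex of mice 1-16 also missed it under the block. Correlations between AL and IF libraries of the same number ran from -0.495 in cortex of mice 25-40 to 0.552 in muscle of mice 25-40. Of 8 pairs, 4 passed 0.1 in muscle of each set and in cortex of mice 25-40. The library of the same number was the best match for at most 2 of 8, so these values did not show that the numbers pair AL with IF mice.

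Of the named members, 348 results were the same, 5 stronger and 20 weaker, and none reversed. One fit over 3 tissues lost Sdhb, Uqcr11, Cox6a2, Cox7a1, Cox8b and Atp5d in muscle of mice 1-16 and Cox8a in liver. Leaving out mice 2 and 10 lost Sdhb, Uqcr11, Cox5b-ps, Cox8b and Atp5d in muscle, no expression filter lost Uqcr11, Cox5b-ps, Cox8b and Ndufb8, and leaving out mouse 12 lost Uqcr11 and Cox5b-ps. Gained calls were Cox6b1 in liver with one fit and without mice 2 and 10, Cox6a1 in muscle with DESeq2 and with one fit, and Cox7a2 in muscle without mice 8 and 9. The group medians of the summed levels scaled within each tissue and set moved by less than the SD of the group with the library total in all 60 cases, while in liver of mice 1-16 complexes III and IV and the sum of all members came to lie apart. The sums scaled over the 3 tissues were not among these cases. There the AL median over all members in cortex of mice 1-16 went from 9935 CPM (SD 1125) to 15347 CPM, above that of liver. With the length used, 65 of the isoform shares moved.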
